A study of Mus musculus with 16 samples.

Results

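Oxidative phosphorylation was followed in primary murine tracheal epithelial cell cultures (MTECs) through the genes that build its 5 enzyme complexes. Members were the protein-coding genes whose symbol begins with Nduf, Uqcr, Cox4 to Cox8 or Atp5, is Sdha, Sdhb, Sdhc or Sdhd, or begins with mt-Nd, mt-Co, mt-Cytb or mt-Atp. This gave 106 of the 49315 genes in the table, of which 93 are nuclear and 13 lie on mitochondrial DNA. MTECs are tracheal cells kept on porous inserts at an air-liquid interface. They came from male (M) and female (F) littermates on a C57BL/6J background that were wild type (WT) or labelled knockout (KO) for LMAN1, a receptor that carries cargo out of the endoplasmic reticulum. Cultures were naive, that is untreated, or received house dust mite extract (HDM) at 20 µg/ml overnight, which gives 8 groups of 2 libraries: F WT naive, F WT HDM, F KO naive, F KO HDM, M WT naive, M WT HDM, M KO naive and M KO HDM. The study's supplement describes cells pooled from several tracheas on inserts coated with a matrix made by 3T3 cells, and the age of the mice is not given in the sources used here. The labels call the 2 libraries of a group biological replicates, and which pool each came from is not stated, so p-values measure the spread between these cultures.

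Oxidative phosphorylation takes place in the inner mitochondrial membrane, where complexes I and II take electrons from NADH and succinate, complexes III and IV pass them on to oxygen, and complex V uses the resulting proton gradient to make ATP. Mitochondrial DNA encodes core subunits of complexes I, III, IV and V, and it is transcribed as long precursors by its own polymerase. All other subunits, complex II among them, and the proteins that assemble the complexes are encoded in the nucleus, so that each complex with mixed origin draws on both genomes. In the airway, ciliated cells are rich in mitochondria, since the beating of cilia consumes ATP.

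Counts on genes came to between 21860698 and 43442188 per library, and the lowest totals were those of F WT HDM, 24842240 and 21860698. Lman1 lay between 101 and 144 CPM (counts scaled to a common library total by TMM) in the 8 WT libraries and between 12.8 and 78.1 CPM in the 8 libraries labelled KO. In 5 of these 8 it exceeded 20% of the WT mean, namely in all 4 labelled KO HDM, at 53.9% to 64.8%, and in M KO naive replicate 2, at 52.6%. Throughout, F KO and M KO therefore mean the libraries labelled KO. Both F KO naive libraries stood at 10.6% of the WT mean. HDM and the Lman1 level therefore cannot be told apart within F KO, nor in tests that use its HDM response. All 10 basal markers, Krt5 and Trp63 among them, and all 10 secretory markers were tested. Cyp2f2, with 3754 to 18918 CPM over the 16 libraries, carried most of the secretory sum in each library, whereas Scgb1a1, the defining club cell gene, reached at most 3.75 CPM. Marker genes moved with HDM in female cultures. In F WT, 8 of 13 ciliated, 10 of 10 secretory and 6 of 10 basal markers fell, beside 22.4% of all genes that fell and 20.6% that rose, with median log2 fold changes of -3.29, -5.18 and -1.92. The summed secretory level was 16359 to 21476 CPM in F WT naive and 3838 to 4703 CPM in F WT HDM, the ciliated level 141 to 189.9 and 107 to 121 CPM, and the basal level 11826 to 13244 and 3969 to 6519.5 CPM. Of the fibroblast markers 2 of 10 rose, with a summed level of 82.5 to 717 CPM in F WT naive and 323 to 1064 CPM in F WT HDM. Of 8 squamous markers tested 1 rose and 3 fell, of 10 markers of ionocytes, neuroendocrine and tuft cells 1 rose and 5 fell, and of 2 muscle markers tested 1 rose. Of the immune markers 3 of the 7 tested fell, Cd3e and S100a8 had at most 3 counts in every library, and of 10 muscle markers 5 had at most 3 counts in every library. In F KO 3 ciliated, 7 secretory, 1 basal, 3 ionocyte, neuroendocrine or tuft cell and 1 immune marker fell and none of the 8 lists had a riser, beside 5.77% of all genes that fell and 4.63% that rose, and in M WT and M KO no gene of any list was called by edgeR. In bulk RNA, fewer cells of a type and less RNA per cell cannot be told apart, and the part of these shifts in the results below was not tested.

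The 13 mitochondrially encoded members fell into 2 classes by their counts. The 7 genes mt-Nd1, mt-Nd2, mt-Nd4, mt-Nd5, mt-Nd6 (subunits of complex I), mt-Cytb (cytochrome b of complex III) and mt-Co1 (the catalytic subunit of complex IV) had between 3486 and 231237 counts per library. The other 6, mt-Nd3, mt-Nd4l, mt-Co2, mt-Co3, mt-Atp6 and mt-Atp8, had between 2 and 97. Transcripts of the GENCODE M21 annotation (GRCm38) were searched for every 50-base window of each gene. Of the 635 windows in mt-Co2 all 635 also occurred in a transcript from another chromosome, and the shares were 99.9% in mt-Co3, 99.5% in mt-Atp6, 98.8% in mt-Nd4l and 98.0% in mt-Nd3. For these 5 the copies that hold most windows are pseudogenes on chromosome 1. In mt-Nd1, mt-Nd6 and mt-Cytb the share was 0%, in mt-Nd5 7.61%, in mt-Nd2 8.19%, in mt-Co1 51.1% and in mt-Nd4 62.2%. No window of mt-Atp8 was found in those transcripts. Its position, chrM:7766-7969, follows mt-Co2 and overlaps mt-Atp6 at chrM:7927-8607. The copy of mt-Co2, Gm28661, lies at chr1:24614885-24615565 and that of mt-Atp6, Gm10925, at chr1:24613974-24614651. Sequence outside annotated transcripts was not searched, so copies there would not be seen for any of the 13 genes. Why mt-Atp8 held few counts was not tested. The opening 60 bases of mt-Co2 and of its chromosome 1 copy Gm28661 are shown because they are the same in every base. The start of mt-Nd1, with no window in an annotated transcript of another chromosome, is shown beside them.
mt-Co2, chrM:7013-7072, plus strand: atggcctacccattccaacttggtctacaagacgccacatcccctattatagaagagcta
Gm28661, chr1:24615506-24615565, minus strand: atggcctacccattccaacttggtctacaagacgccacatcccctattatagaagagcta
mt-Nd1, chrM:2751-2810, plus strand: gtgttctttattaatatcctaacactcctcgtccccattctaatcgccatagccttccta
A stretch of mt-Co1 at the edge of its shared part is shown with the copy Gm29216, and capitals mark the 6 bases that differ.
mt-Co1, chrM:6381-6440, plus strand: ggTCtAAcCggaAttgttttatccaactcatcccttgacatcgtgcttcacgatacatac
Gm29216, chr1:24616138-24616197, minus strand: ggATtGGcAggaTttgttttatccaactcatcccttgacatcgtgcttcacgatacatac
Summed over the 16 libraries, mt-Co2 held 374 counts and Gm28661 held 601, against 517953 on mt-Nd1 and 2315207 on mt-Co1. Counts on the 5 genes with shares of 98.0% or more and on mt-Co1 and mt-Nd4 are uncertain as levels. Reads that fit more than 1 place can be split or dropped, and how the authors treated such reads is not given in the sources used here. For mt-Atp8, with no window found elsewhere, the level is uncertain because its counts are few. The 7 well-counted genes carry the results below.

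**Figure D1:**
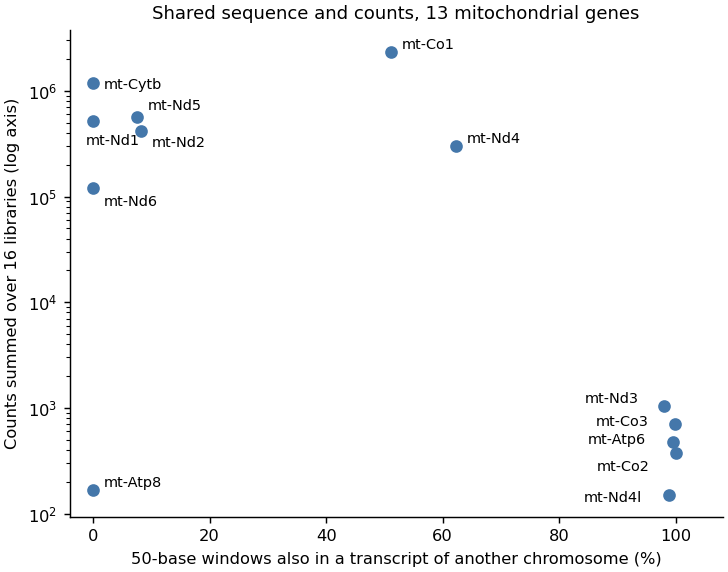
Each point is 1 of the 13 mitochondrially encoded genes, with the percentage of its 50-base windows that also occur in an annotated transcript of another chromosome on the x axis and its counts summed over the 16 libraries on a log y axis. The 5 genes at 98.0% or more and mt-Atp8 lie at or below 1036 counts, and the other 7 lie at or above 120259.

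Levels between genes were compared as TPM, that is as counts per length of exon scaled to a common total. Medians over the 16 libraries were 10728 TPM for mt-Co1, 7198 for mt-Cytb, 3733 for mt-Nd1, 2864 for mt-Nd2, 2288 for mt-Nd5, 1718 for mt-Nd6 and 1566 for mt-Nd4. Each of these exceeded the most abundant nuclear members, Cox6a1 at 1169.9 TPM and Cox8a at 1093 TPM, both small subunits of complex IV. The beta and alpha subunits of the ATP synthase motor, Atp5b and Atp5a1, stood at 997 and 988 TPM, Cox4i1, a subunit of complex IV, at 741 TPM and the flavoprotein of complex II, Sdha, at 306 TPM. In complex I the iron-sulphur subunit Ndufs1 had 43.7 TPM while Ndufv1 had 167, and in complex III Uqcrc1 had 155 and the Rieske protein Uqcrfs1 217. Members were assigned to complexes by their symbols. The median member had 147 TPM in complex I, 203 in complex II, 257 in complex III, 229 in complex IV and 236 in complex V. It had 19.5 among the 8 assembly factors Ndufaf1 to Ndufaf8, which do not stay in the finished complex. Transcripts of subunits were thus more abundant per length than those of the assembly factors, without a test.

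Several subunits exist as isoforms that differ between tissues, and MTECs expressed the broadly used form of each. Cox6a1 stood at 1169.9 TPM and the heart and muscle form Cox6a2 at 0.338 TPM. Cox8a had 1093 TPM, while the muscle form Cox8b and the testis form Cox8c had 0 counts in every library, as did Cox7b2, the partner of Cox7b at 209 TPM. Cox4i2, the form of Cox4i1 known for the lung and low oxygen, had at most 3 counts in a library. Cox7a2 and the supercomplex factor Cox7a2l stood at 206 and 229 TPM and the muscle form Cox7a1 at 11.5 TPM. Cox6b1 had 705 TPM against 3.85 for the testis form Cox6b2, and Ndufa4 had 416 against 0.866 for Ndufa4l2. The 3 genes that encode the same mature c subunit of complex V stood at 349 TPM for Atp5g3, 236 for Atp5g2 and 49.2 for Atp5g1. Cox4i2, Cox6a2, Cox7b2, Cox8b and Cox8c did not pass the filter on low counts, which left 88 nuclear and 13 mitochondrially encoded members in the tests, 101 of 106.

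Nuclear members share regulators such as NRF1 and GABPA, an ETS factor, that are known to bind promoters of respiratory genes. RefSeq promoters (GRCm38.p6) were matched for 74 of the 93 nuclear members, with 79 promoters, and the 250 bases before each start were searched on both strands. The NRF1 motif GCGCATGCG occurred in 7 of 79 (8.86%) against 1.44% of all 32817 promoters in the table. Its core GCATGCG, which lies within the longer form, occurred in 10 of 79 (12.7%) against 3.01%, and the ETS motif CCGGAAG in 14 of 79 (17.7%) against 6.90%. For the longer ETS form CCGGAAGT the count was 3 of 79 (3.80%) against 2.88%, for the ERR core AAGGTCA 5 of 79 (6.33%) against 4.08%, for TCAAGGTCA 1 of 79 (1.27%) against 0.387%, for the YY1 motif AAGATGG 1 of 79 (1.27%) against 4.49%, for AAGATGGCG 1 of 79 (1.27%) against 0.603% and for TATAAA 7 of 79 (8.86%) against 12.4%. The NRF1 forms and CCGGAAG were thus found at higher shares in member promoters than over the table, as a description without a test. Of the nuclear members that fell with HDM in F WT and had a promoter, 2 of 21 held GCATGCG, and of those that rose 2 of 7 did. The promoter of Cox6a1, which rose, is shown with an NRF1 motif readable on both strands and an ETS motif in capitals, that of Sdhb, which fell, with the NRF1 core in capitals, and that of Uqcr10, which fell and holds no motif searched.
Cox6a1, chr5:115348959-115349208, minus strand: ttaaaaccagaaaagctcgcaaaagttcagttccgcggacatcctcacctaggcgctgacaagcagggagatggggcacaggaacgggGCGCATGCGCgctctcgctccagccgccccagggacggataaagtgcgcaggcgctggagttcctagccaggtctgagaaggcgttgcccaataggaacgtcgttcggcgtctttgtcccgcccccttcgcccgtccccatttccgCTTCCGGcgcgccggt
Sdhb, chr4:140961021-140961270, plus strand: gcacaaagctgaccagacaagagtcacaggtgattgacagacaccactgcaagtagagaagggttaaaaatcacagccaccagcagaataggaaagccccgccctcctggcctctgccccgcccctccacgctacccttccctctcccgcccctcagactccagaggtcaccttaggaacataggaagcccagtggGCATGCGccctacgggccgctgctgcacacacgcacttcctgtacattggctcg
Uqcr10, chr11:4704345-4704594, minus strand: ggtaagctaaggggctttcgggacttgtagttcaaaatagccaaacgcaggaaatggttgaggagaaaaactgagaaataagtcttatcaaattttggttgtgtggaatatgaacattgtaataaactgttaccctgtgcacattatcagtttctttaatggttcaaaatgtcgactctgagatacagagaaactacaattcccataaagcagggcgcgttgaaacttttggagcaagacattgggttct
A match is a run of letters and was not examined for binding.

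Whether HDM changed the mitochondrially encoded genes was asked within each sex and genotype. In F WT cultures 12 of 13 rose and none fell, with a median log2 fold change of 1.90, where 20.6% of all 15993 genes tested rose and 22.4% fell and the median gene moved by -0.02. mt-Co1 had 2816 and 2511 CPM in the F WT naive libraries and 8985 and 10951 CPM in the F WT HDM libraries. Its log2 fold change was 1.90 ± 0.26 (SE, edgeR adjusted p = 0.000151). For mt-Cytb the naive cultures had 1457 and 1333 CPM and the HDM cultures 4606 and 5366 CPM (1.84 ± 0.26, adjusted p = 0.000229). Both HDM libraries lay above both naive libraries for each of the 13 genes. The share of all genes with such a separation is not given, here or for the separations described below. With 2 libraries against 2, these separations describe the libraries and are no test. Among the complex I subunits, mt-Nd1 went from 642 and 597 to 2117 and 2711 CPM, mt-Nd2 from 460.4 and 425 to 1724 and 2232 and mt-Nd4 from 344 and 296 to 1171 and 1519. mt-Nd5 went from 727 and 615 to 2015 and 2441 CPM. mt-Nd6, the 1 member read from the opposite strand, went from 152 and 136 to 408 and 518 CPM. The 7 well-counted genes had log2 fold changes from 1.69 to 2.16, all called, so counts on genes of 3 complexes moved together. Whether transcripts of both strands rose cannot be told, since the strand setting of the counting is not given. Without it, reads of either strand over mt-Nd6 would count to that gene. The 6 sparsely counted genes ranged from 1.28 to 2.31, mt-Atp8 being the 1 not called (adjusted p = 0.0611) with 7 and 10 counts in naive and 9 and 17 in HDM. Leaving out any 1 of these 4 libraries left 11 to 13 called.

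In F KO cultures 10 of 13 rose and none fell, against 4.63% of all genes that rose and 5.77% that fell, and the median log2 fold change was 1.37. mt-Co1 had 2159.6 and 2219 CPM in F KO naive and 5719 and 5536 CPM in F KO HDM, a log2 fold change of 1.36 ± 0.25 (adjusted p = 0.00673). mt-Cytb rose from 1072 and 1209.9 to 3362 and 3183 CPM (1.52 ± 0.26, adjusted p = 0.00453) and mt-Nd1 from 498 and 544 to 1410.3 and 1288 CPM (1.37 ± 0.26, adjusted p = 0.00663). The groups did not overlap for any of the 7 well-counted genes, which ranged from 1.13 to 1.60. Lman1 stood at 10.6% of the WT mean in both F KO naive libraries, so HDM and the Lman1 level cannot be told apart here. Both F KO HDM libraries, in which Lman1 stood at 55.3% and 64.8% of the WT mean, lay below both F WT HDM libraries for each of the 7. Between these groups 6 of 13 were lower in F KO and none higher, with a median of -0.79, where 14.3% of all genes were lower and 14.9% higher. For mt-Nd4 this difference was -0.96 ± 0.28 (adjusted p = 0.0238) and for mt-Co1 -0.82 ± 0.25 (adjusted p = 0.0297). The test of whether the HDM response itself differed between F KO and F WT called none of the 13 with edgeR, 1 at an unadjusted p under 0.05 and none with DESeq2, but 4 without the filter on low counts and 1 with only the compared libraries, all lower in F KO, against 5.08% of all genes called lower and 6.16% higher. The count in F KO depended on single libraries, with 1 called without F KO naive replicate 1, 5 without F KO naive replicate 2, 7 without F KO HDM replicate 1 and 5 without F KO HDM replicate 2. The 6 called between F KO HDM and F WT HDM became 0 without F WT HDM replicate 2 or F KO HDM replicate 1, 1 without F KO HDM replicate 2 and 5 without F WT HDM replicate 1.

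**Figure D2:**
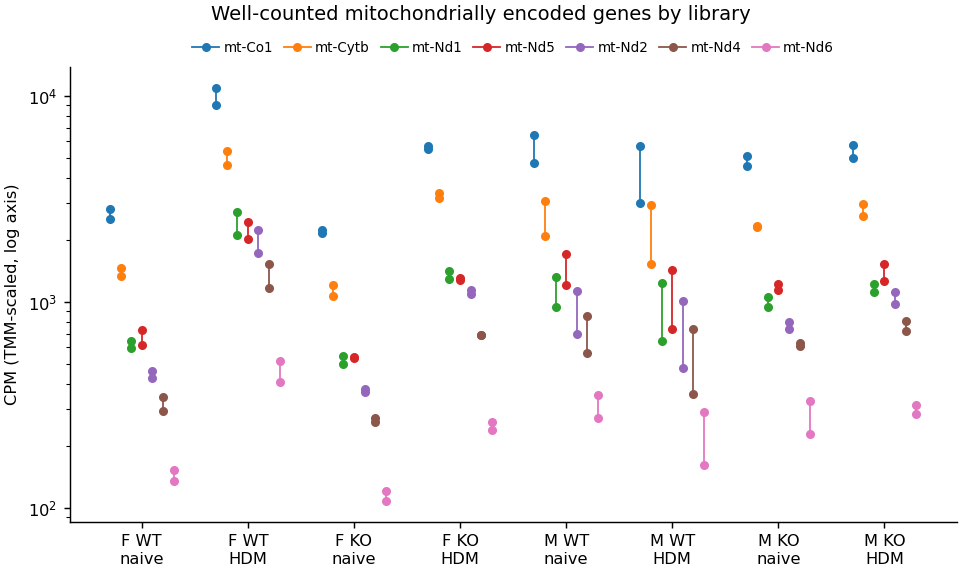
CPM of the 7 well-counted mitochondrially encoded genes on a log y axis, by group on the x axis, with 1 point per library and a line joining the 2 libraries of a group. Every gene is higher in both F WT HDM and both F KO HDM libraries than in the naive libraries of the same sex and genotype, whereas naive and HDM overlap in M WT for all 7.

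In male cultures none of the 13 was called in M WT or in M KO by edgeR, none had an unadjusted p under 0.05 in either, DESeq2 called none, 1 in each was called without the filter on low counts, mt-Nd6 as lower in M WT and mt-Nd2 as higher in M KO, and 0% of all genes were called in M WT and 0% in M KO (665 and 857 at an unadjusted p under 0.05, 2 and 1 by DESeq2). In M WT, mt-Co1 had 4703 and 6438 CPM in naive and 2996 and 5728 CPM in HDM, and these groups overlapped. In M KO it had 5066 and 4577 CPM in naive and 4974 and 5758 CPM in HDM. In M KO the 2 HDM libraries lay above the 2 naive libraries for mt-Cytb, mt-Nd1, mt-Nd2, mt-Nd4 and mt-Nd5, by differences that did not pass the test. The log2 fold changes of mt-Co1 were -0.35 ± 0.25 in M WT and 0.15 ± 0.25 in M KO. Medians over the 13 were -0.30 in M WT and 0.23 in M KO, and the test of whether the response differed between M KO and M WT called none of them, with 1 at an unadjusted p under 0.05 and none by DESeq2 (0% of all genes). The replicates within M WT differed widely, replicate 2 being higher than replicate 1 for each of the 7 well-counted genes in naive and in HDM. Within each replicate number mt-Co1 was lower in HDM than in naive, though the numbers do not establish a pairing. Over all tested genes the replicate differences of M WT naive and M WT HDM had a correlation of 0.702.

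The HDM response differed between the sexes in WT. In the test of the difference, M response minus F response, 11 of 13 mitochondrially encoded genes were lower in M and none higher, where 11.3% of all genes were lower and 12.8% higher. The median was -2.19 on the log2 scale, and mt-Nd1 and mt-Co1 had -2.23 ± 0.36 (adjusted p = 0.00128) and -2.26 ± 0.36 (adjusted p = 0.00118). Leaving out each of the 8 libraries in turn left 11 called. In KO the same test called 1 of 13, mt-Co3 at -1.56 ± 0.34 (adjusted p = 0.0327), against 1.79% of all genes lower and 1.77% higher. The 7 well-counted genes had values from -1.25 to -1.02 there, none called by edgeR, 7 of 7 at an unadjusted p under 0.05, and 6 of 7 by DESeq2. The count of 1 became 7 with a replicate block, with only the compared libraries or by DESeq2, and 9 without the filter on low counts. The 1 call was lost without any 1 of the 8 libraries except M KO naive replicate 2. Whether the sex difference of the response itself differs between WT and KO was not tested.

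Without HDM, male cultures had higher levels of these genes than female cultures, by differences that mostly missed the threshold over all genes. mt-Cytb had 1457 and 1333 CPM in F WT naive and 2077 and 3070.1 CPM in M WT naive, and 1072 and 1209.9 CPM in F KO naive and 2318 and 2296 CPM in M KO naive. Both male libraries lay above both female libraries in WT and in KO for each of the 7 well-counted genes. In WT naive none of the 13 was called by edgeR, with 10 at an unadjusted p under 0.05, all higher in M, 6 by DESeq2 and 0.100% of all genes called. The median M minus F difference was 1.03 in WT naive and 1.14 in KO naive. In KO naive 1 was called higher in M, mt-Co3 at 1.54 ± 0.25 (adjusted p = 0.0445), against 0.119% of all genes higher and 0.0688% lower, and DESeq2 called 7. That call was lost when any 1 of the 4 libraries was left out. After HDM the order was turned in WT, where 11 of 13 were lower in M than in F (median -1.27), against 20.3% of all genes lower and 21.3% higher. mt-Nd1 had 642 and 1237 CPM in M WT HDM and 2117 and 2711 CPM in F WT HDM, a difference of -1.36 ± 0.26 (adjusted p = 0.00136). Of these 11 calls, 7 were left without F WT HDM replicate 2 and 8 without M WT HDM replicate 1, and 3 when only the 4 compared libraries were fitted. In KO HDM none of the 13 was called by edgeR, none had an unadjusted p under 0.05 and DESeq2 called none, and 12.9% of all genes were higher in M and 12.4% lower.
Between the genotypes, none of the 13 was called in F naive (0% of all genes), M naive (0%) or M HDM (0%) by edgeR or by DESeq2, and at an unadjusted p under 0.05 the counts were 0, 0 and 1. Median KO minus WT differences were -0.26, -0.16 and 0.37.

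As a share of all gene counts, the 13 mitochondrially encoded genes took 0.672% and 0.606% in F WT naive, 2.03% and 2.49% in F WT HDM, 0.515% and 0.533% in F KO naive and 1.38% and 1.36% in F KO HDM. In male cultures they took 1.03% and 1.51% in M WT naive, 0.666% and 1.34% in M WT HDM, 1.11% and 1.06% in M KO naive and 1.21% and 1.37% in M KO HDM. The group means of F KO naive and F WT naive were the lowest and that of F WT HDM the highest. This share rests on the 7 well-counted genes, since counts on the other 6 were few. The 93 nuclear genes took 1.06% and 1.05% in F WT naive, 0.922% and 0.924% in F WT HDM, 1.04% and 1.08% in F KO naive and 1.02% and 0.932% in F KO HDM. Male libraries lay between 0.924% and 1.02%. Averaged over the 4 combinations of sex and genotype, HDM minus naive was 0.603 percentage points for the mitochondrially encoded share (two-sided exact permutation test within combinations, p = 0.0355, higher in 3 of 4) and -0.0530 for the nuclear share (exact p = 0.0525, higher in 1 of 4). In female cultures alone the differences were 1.23 and -0.106 percentage points, both with an exact permutation p of 0.0556, the smallest the 36 arrangements allow, and in male cultures -0.0291 and 0.000538. Leaving out M WT HDM replicate 2 raised the p for the mitochondrially encoded share to 0.105, M WT naive replicate 1 to 0.0864, and any 1 of the 4 F KO libraries to between 0.0540 and 0.0556. For the nuclear share, whose p was above the threshold with all libraries, it lay between 0.0293 and 0.0494 without M WT naive replicate 1, M WT HDM replicate 2, M KO naive replicate 2, M KO HDM replicate 1 or F KO HDM replicate 1.

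**Figure D3:**
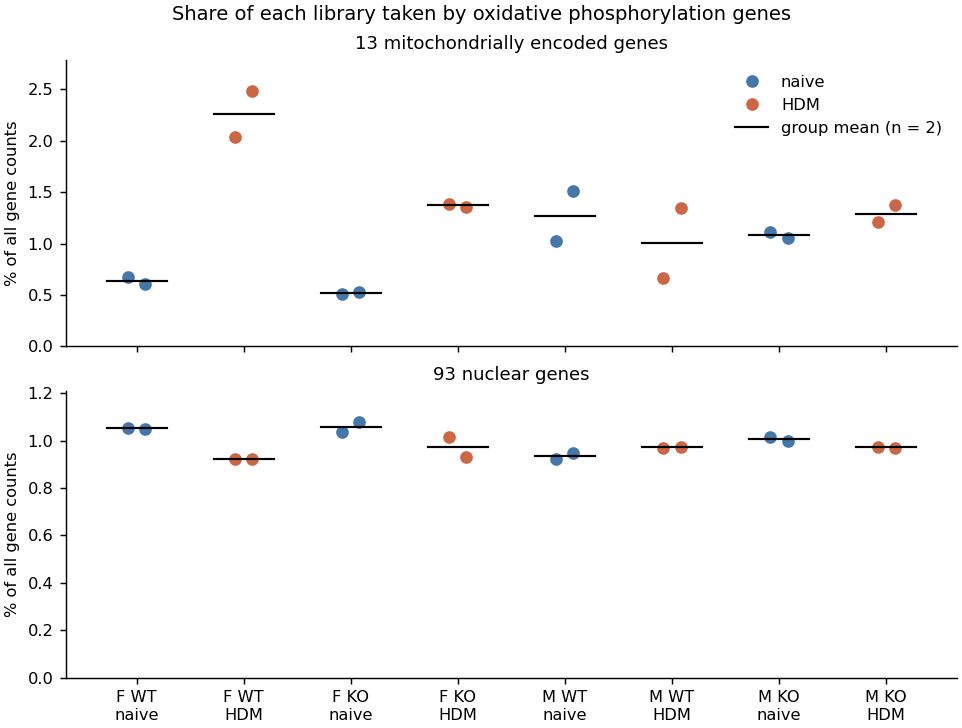
Percentage of all gene counts on the 13 mitochondrially encoded genes (upper panel) and on the 93 nuclear genes (lower panel), with 1 point per library, group means as lines and both y axes from 0. F WT HDM lies above every other group in the upper panel, and the nuclear share stays between 0.922% and 1.08% in the lower.

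The proportions among the mitochondrially encoded genes moved less than their sum. mt-Co1 made up 41.2% to 44.9% of the counts on the 13 genes over the 16 libraries, mt-Cytb 19.8% to 24.2%, mt-Nd5 9.37% to 11.5%, mt-Nd1 8.85% to 10.5%, mt-Nd2 6.52% to 8.67%, mt-Nd4 4.96% to 6.06% and mt-Nd6 1.80% to 2.91%. Each of the 6 sparsely counted genes made up at most 0.0323%. These proportions therefore describe counts on the 7 well-counted genes and not the composition of mitochondrial mRNA. Over the 16 libraries, which share their groups and depth, the Pearson correlation of log2 CPM between 2 of the 7 well-counted genes ranged from 0.935 to 0.996 with a median of 0.983. Between 2 of the 88 tested nuclear members it ranged from -0.890 to 0.969 with a median of 0.315. The non-member genes whose pattern over the 16 libraries was most like the mean of the 13 were Malat1 (r = 0.952), a long RNA kept in the nucleus, Gm10925 (r = 0.949), the chromosome 1 copy of mt-Atp6, mt-Te (r = 0.946), a mitochondrial transfer RNA, Ets1 (r = 0.940), an ETS transcription factor, and Paip1 (r = 0.939), which binds the poly(A)-binding protein. Malat1 had 146 and 154 CPM in F WT naive and 441 and 504 CPM in F WT HDM, and 133 and 128 CPM in F KO naive and 214 and 258 CPM in F KO HDM. Its log2 fold change was 1.66 ± 0.13 in F WT (adjusted p = 3.28e-06) and 0.85 ± 0.13 in F KO (adjusted p = 0.00249). Malat1, which codes for no protein, was picked for its likeness over these same libraries. Its rise in the female comparisons follows from that choice and is no separate support. It was not called in M WT or M KO.

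Nuclear members moved little by comparison. In F WT 26 of 88 fell (29.5%) and 7 rose (7.95%) with HDM, beside 22.4% and 20.6% of all genes tested, and the median log2 fold change was -0.15. All called nuclear members apart from Cox6b2 had log2 fold changes between -0.67 and 0.42. Complex II had 3 of 4 fall, complex III 5 of 8, complex I 10 of 38, the Ndufaf assembly factors 2 of 8, complex IV 3 of 13 and complex V 3 of 17. Those that rose were 3 in complex I, 1 assembly factor, 2 in complex IV and 1 in complex V, with 0 in complexes II and III. The nuclear count depended on single libraries, with 33 called in all, 11 without F WT naive replicate 1, 20 without F WT naive replicate 2, 21 without F WT HDM replicate 1 and 14 without F WT HDM replicate 2.

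In complex I, Ndufs1, its largest iron-sulphur subunit, had 106 and 103 CPM in F WT naive and 82.0 and 73.9 CPM in F WT HDM, a log2 fold change of -0.42 ± 0.07 (SE, edgeR adjusted p = 0.000455). Ndufv1, which binds NADH, fell from 142 and 134 to 118 and 114 CPM (-0.25 ± 0.06, adjusted p = 0.00507). Both of these core subunits thus fell. Ndufa13, an accessory subunit also known as GRIM-19, rose from 97.8 and 94.0 to 117 and 132 CPM (0.37 ± 0.10, adjusted p = 0.0124). The other risers were Ndufb6 at 0.32 and Ndufc2 at 0.15, both accessory subunits of the membrane arm. Among the assembly factors Ndufaf4 rose from 15.3 and 16.8 to 20.3 and 22.8 CPM (0.42 ± 0.10, adjusted p = 0.00550) and Ndufaf5, a modifying enzyme of an early assembly step, fell from 10.7 and 10.5 to 6.74 and 6.77 CPM (-0.65 ± 0.13, adjusted p = 0.00171). Ndufa4l2 and its partner Ndufa4 were counted with complex I by symbol alone, and whether they belong to it was not examined. Ndufa4l2 had 8 and 12 counts in naive and 1 and 1 in HDM, too few for a call (adjusted p = 0.106). Ndufa4 had 161 and 179.9 CPM in naive and 177 and 174 in HDM (0.04 ± 0.15).

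Complex II carries no mitochondrially encoded subunit. Sdha had 404 and 365 CPM in F WT naive and 332 and 295 CPM in F WT HDM (-0.30 ± 0.08, adjusted p = 0.0128), and its iron-sulphur partner Sdhb fell from 102 and 99.4 to 87.9 and 88.8 CPM (-0.19 ± 0.06, adjusted p = 0.0243). The membrane anchor Sdhd fell (-0.17 ± 0.05, adjusted p = 0.0199) and the other anchor, Sdhc, was not called (-0.09 ± 0.07, adjusted p = 0.322). In complex III Uqcr10, a small subunit, had 80.5 and 77.4 CPM in naive and 56.1 and 57.2 in HDM (-0.48 ± 0.08, adjusted p = 0.00081). The core proteins Uqcrc2, with 201 and 198 CPM in naive and 147 and 148 in HDM (-0.43 ± 0.09, adjusted p = 0.00195), and Uqcrc1 (-0.25 ± 0.08, adjusted p = 0.0230) fell too. Uqcrfs1, which carries the catalytic iron-sulphur cluster, was not called (-0.08 ± 0.09, adjusted p = 0.504). The 2 HDM libraries lay below the 2 naive libraries for all 6 genes called in complexes II and III that are named here. These genes were picked as called, so this separation is no separate support.

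Complex IV moved in both directions. Cox6b2, known from testis, had 1.24 and 1.82 CPM in F WT naive and 4.74 and 5.40 CPM in F WT HDM, a log2 fold change of 1.72 ± 0.34 (adjusted p = 0.00190), on 34 and 81 and 114 and 114 counts. It remained far below Cox6b1, which had 154 and 162 CPM in naive and 153 and 161 in HDM. Cox6a1 rose from 246 and 239 to 294 and 299 CPM (0.29 ± 0.10, adjusted p = 0.0342). Cox8a fell from 223 and 217 to 173 and 176 CPM (-0.34 ± 0.11, adjusted p = 0.0247) and Cox7a1 from 1.82 and 1.91 to 1.25 and 1.09 CPM (-0.67 ± 0.24, adjusted p = 0.0393). Small subunits of this complex thus rose and fell in the same cultures. Cox4i1, Cox5a, Cox7a2, Cox7a2l and Cox7b were not called, with log2 fold changes of 0.18, -0.10, 0.14, 0.24 and -0.07. In complex V the alpha subunit Atp5a1 fell from 929.5 and 914 to 776 and 707 CPM (-0.31 ± 0.09, adjusted p = 0.0170) and the beta subunit Atp5b, with 1334 and 1337 CPM in naive and 1225 and 1173 in HDM, was not called (-0.16 ± 0.08, adjusted p = 0.123). The c subunit genes went apart. Atp5g1 rose from 69.6 and 74.5 to 91.6 and 90.5 CPM (0.34 ± 0.10, adjusted p = 0.0183), Atp5g2 fell from 131 and 126 to 98.1 and 94.9 CPM (-0.42 ± 0.11, adjusted p = 0.0111), and Atp5g3 was not called (-0.16 ± 0.11). Without F WT naive replicate 1, or without F WT HDM replicate 2, neither Atp5g1 nor Atp5g2 was called.

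**Figure D4:**
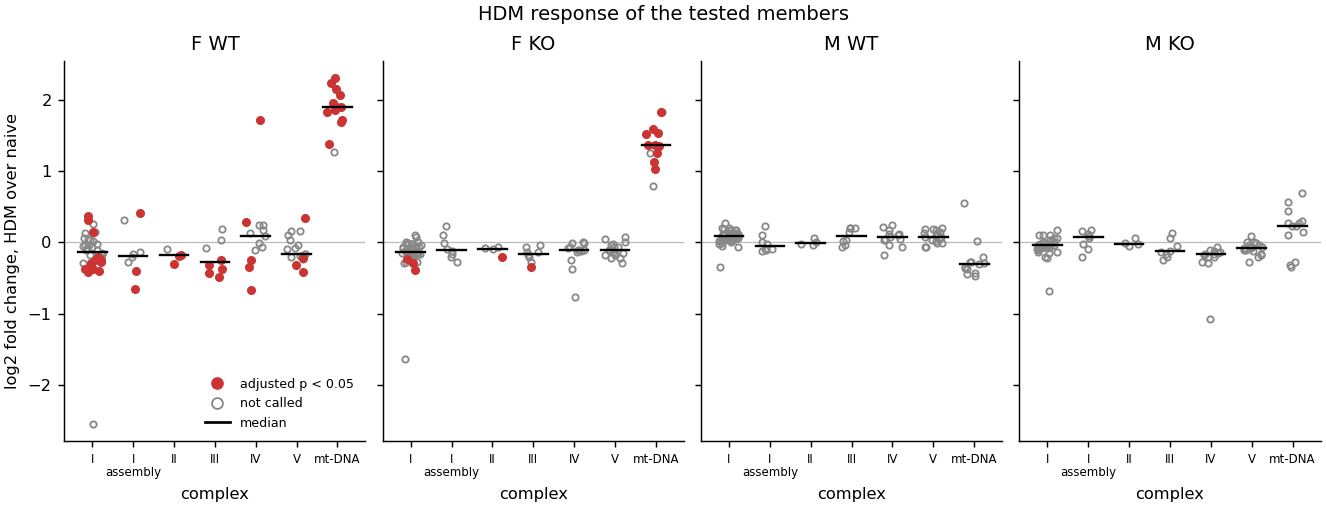
Log2 fold change of HDM over naive on the y axis for the 101 tested members, 1 point per gene, by complex on the x axis and by sex and genotype in 4 panels, with filled points for genes called by edgeR and a line at the median. The 13 genes of mitochondrial DNA (mt-DNA) lie above 0 in F WT and F KO, and the medians of the nuclear members stay between -0.28 and 0.10 in every panel and complex. The nuclear gene Cox6b2, at 1.72 in F WT, lies within the range of the mt-DNA genes there.

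In F KO 5 of 88 nuclear members fell (5.68%) and none rose, beside 5.77% and 4.63% of all genes, and the median was -0.12. Ndufv3, an accessory subunit of the NADH-binding module, had 46.0 and 47.2 CPM in F KO naive and 39.1 and 31.9 CPM in F KO HDM (-0.39 ± 0.08, adjusted p = 0.0127). Uqcr10 fell from 71.2 and 79.8 to 65.5 and 54.3 CPM (-0.34 ± 0.08, adjusted p = 0.0255) and Sdhd from 109 and 110.0 to 95.3 and 94.6 CPM (-0.21 ± 0.05, adjusted p = 0.0279). The other 2 were Ndufs3 and Ndufa11, both of complex I, at -0.23 and -0.29. The share that fell was close to that of all genes. The count was 0 without either F KO naive replicate or without F KO HDM replicate 2, and it was 7 without F KO HDM replicate 1. Ndufs1, which fell in F WT, had 106 and 109 CPM in F KO naive and 109 and 105 CPM in F KO HDM (0.00 ± 0.07). Its response differed between the genotypes in the test of the difference, KO minus WT (0.43 ± 0.09, adjusted p = 0.0185), as did those of Ndufaf5 (0.64 ± 0.18, adjusted p = 0.0420) and Cox6b2 (-2.48 ± 0.49, adjusted p = 0.0112). These 3 were the nuclear members called in that test, 2 higher and 1 lower, beside 6.16% and 5.08% of all genes. Their number fell to 0 without F WT naive replicate 1 or F KO naive replicate 2, to 1 without F WT HDM replicate 2 or F KO HDM replicate 2, to 2 without F WT naive replicate 2 or F KO naive replicate 1, and was 4 without F KO HDM replicate 1. Between F KO HDM and F WT HDM, 12 of 88 were lower in F KO and 5 higher, beside 14.3% and 14.9% of all genes. Scaling by library size alone turned this split to 5 lower and 11 higher, and by the upper quartile to 13 and 3. The total of 17 became 3 without F WT HDM replicate 2 or F KO HDM replicate 2. Cox6b2 had 1.37 and 0.716 CPM in F KO HDM against 4.74 and 5.40 in F WT HDM (-2.28 ± 0.36, adjusted p = 0.00110) and Ndufs1 109 and 105 against 82.0 and 73.9 (0.46 ± 0.07, adjusted p = 0.000737).

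No nuclear member was called for an HDM response in M WT or M KO by edgeR or DESeq2, with 6 and 6 of 88 at an unadjusted p under 0.05. Ndufs1 had 102 and 107 CPM in M WT naive and 96.7 and 105 CPM in M WT HDM (-0.05 ± 0.07), and Uqcrc2 had 178 and 205 CPM in naive and 170.1 and 195 CPM in HDM (-0.07 ± 0.09). Naive and HDM overlapped for both. Median log2 fold changes were 0.07 in M WT and -0.07 in M KO. The test of the difference between the sexes in WT called 22 nuclear members, 20 higher in M and 2 lower, beside 12.8% and 11.3% of all genes, that is 22.7% and 2.27% of the 88. Uqcr10 had the smallest p, at 0.68 ± 0.12 (adjusted p = 0.00189), followed by Ndufv1 at 0.36 ± 0.08 (adjusted p = 0.00792), and the 2 lower in M were Cox6b2 (-1.90) and Ndufaf4 (-0.52). The count was 2 without F WT naive replicate 1, 5 without F WT HDM replicate 2, 8 without M WT naive replicate 2, 9 without M WT HDM replicate 1, 10 without F WT HDM replicate 1, 12 without M WT HDM replicate 2 or F WT naive replicate 2, and 13 without M WT naive replicate 1. In KO the same test called none by edgeR or DESeq2, with 4 at an unadjusted p under 0.05, and the test between M KO and M WT called none by either, with 16. The 16 responses were all lower in M KO, and the counts over all genes at that threshold are not given.

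Between the sexes after HDM, 14 of 88 nuclear members were higher and 12 lower in M in WT, beside 21.3% and 20.3% of all genes, a split that became 19 and 8 when scaled by library size alone and 10 and 13 with the upper quartile. Ndufa13 had 91.3 and 86.9 CPM in M WT HDM and 117 and 132 CPM in F WT HDM (-0.48 ± 0.10, adjusted p = 0.00325), and Ndufs1 had 96.7 and 105 and 82.0 and 73.9 CPM (0.37 ± 0.07, adjusted p = 0.00109). The total of 26 became 6 without F WT HDM replicate 2, 12 without M WT HDM replicate 1, 13 without either of the other 2 libraries, and 5 when only the 4 compared libraries were fitted. In KO 7 were higher and 1 lower in M, beside 12.9% and 12.4% of all genes, and 5 and 2 when scaled by library size alone. The 1 lower was Atp5g1, with 58.0 and 57.5 CPM in M KO HDM and 85.6 and 75.5 CPM in F KO HDM (-0.48 ± 0.10, adjusted p = 0.00538), and Ndufaf3 had the smallest p among those higher (0.45 ± 0.09, adjusted p = 0.00518). This total of 8 became 2 without M KO HDM replicate 2, 3 without F KO HDM replicate 2, 5 without M KO HDM replicate 1 and 12 without F KO HDM replicate 1. In the naive cultures edgeR called no nuclear member between the sexes. At an unadjusted p under 0.05 there were 36 of 88 in WT, 35 of them lower in M, and 2 in KO, and DESeq2 called 4 and 0. How many of all genes passed that unadjusted threshold is not given, so these counts are not read as a sex effect on the members. Between the genotypes edgeR and DESeq2 called none in F naive, M naive or M HDM, with 1, 23 and 17 at an unadjusted p under 0.05. The 23 were all higher in KO and the 17 went both ways, again without the count over all genes. For Atp5a1, an example from complex V, the levels of the male groups were 937 and 855 CPM in M WT naive, 981 and 911 in M WT HDM, 991 and 872 in M KO naive and 845 and 864 in M KO HDM.

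The mean level of the 88 tested nuclear members lay between 6.05 and 6.28 on the log2(CPM + 4) scale over the 16 libraries. The non-member genes with the most similar pattern were Chchd2 (r = 0.918), a small mitochondrial protein, 2410015M20Rik (r = 0.911), Cox16 (r = 0.880), an assembly factor of complex IV, Epb41l4aos (r = 0.878), a non-coding RNA, and Ascc1 (r = 0.876). Chchd2 ranged from 170.0 to 211 CPM.

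Genes that act around the 5 complexes were followed in 7 lists chosen with earlier results of these data known. Of 18 transcriptional regulators of mitochondrial genes, 9 fell and 1 rose with HDM in F WT, beside 22.4% of all genes that fell and 20.6% that rose, with a median of -0.22. Ppargc1b, a coactivator of mitochondrial genes, fell from 4.61 and 4.20 to 1.04 and 0.616 CPM (-2.39 ± 0.24, adjusted p = 2.05e-05), and Gabpb2, a partner of GABPA, fell from 112 and 107 to 57.7 and 43.0 CPM (-1.12 ± 0.14, adjusted p = 7.89e-05). In F KO these 2 had 4.56 and 5.01 CPM and 89.5 and 104 CPM after HDM and were not called, and 1 of the 18 rose and 1 fell, beside 4.63% and 5.77% of all genes. Of 30 genes that maintain mitochondrial DNA or make and process its RNA, 4 fell and 1 rose in F WT (median -0.12) and 0 were called in F KO by edgeR, with 3 at an unadjusted p under 0.05. Mgme1, a nuclease of mitochondrial DNA, fell from 17.3 and 15.5 to 9.90 and 10.3 CPM (-0.70 ± 0.13, adjusted p = 0.00109), and Polg, its replicative polymerase, fell from 58.7 and 62.4 to 52.4 and 47.4 CPM (-0.28 ± 0.07, adjusted p = 0.00649). The mitochondrial RNA polymerase Polrmt, chosen here after its values were seen, had 40.8 and 40.1 CPM in naive and 34.1 and 35.9 in HDM (-0.21 ± 0.09, adjusted p = 0.0944), and Tfam, which packages mitochondrial DNA and starts its transcription and was chosen likewise, had 40.8 and 40.0 and 40.2 and 40.2 CPM (-0.01 ± 0.07).

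Of 78 mitochondrial ribosomal proteins, which translate the 13 mRNAs, 15 fell and 11 rose in F WT (median 0.00), beside the 22.4% and 20.6% of all genes. In F KO 2 of the 78 fell, beside 5.77% of all genes that fell and 4.63% that rose. The same shares of all genes stand beside each list that follows. Mrps12 rose from 31.6 and 29.2 to 44.9 and 43.8 CPM (0.55 ± 0.09, adjusted p = 0.000704) and Mrps6 fell from 81.7 and 76.6 to 45.6 and 51.1 CPM (-0.71 ± 0.14, adjusted p = 0.00141). Of 23 genes of the TCA cycle and pyruvate dehydrogenase, which supply NADH and succinate, 9 fell and 1 rose in F WT (median -0.15), and 2 fell and 1 rose in F KO. Fumarase, Fh1, fell from 116 and 112 to 81.9 and 73.3 CPM (-0.56 ± 0.07, adjusted p = 0.000107), and Pdhx, the binding protein of pyruvate dehydrogenase, fell from 32.4 and 32.0 to 22.2 and 22.1 CPM (-0.54 ± 0.07, adjusted p = 0.000166). Of 20 genes for electron carriers, mostly coenzyme Q synthesis and cytochrome c, 8 fell and 3 rose in F WT (median -0.22), and 4 fell and 0 rose in F KO. Coq9 fell from 81.3 and 75.7 to 43.1 and 43.6 CPM (-0.86 ± 0.08, adjusted p = 8.48e-06) and Coq8a from 21.4 and 17.4 to 6.78 and 5.54 CPM (-1.65 ± 0.17, adjusted p = 1.95e-05), both of coenzyme Q synthesis. In F KO, Coq9 had 81.2 and 80.2 CPM in naive and 61.7 and 59.5 in HDM (-0.41 ± 0.08, adjusted p = 0.00626). Of 42 tested assembly factors whose symbols lie outside the rule, 12 fell and 3 rose in F WT (median -0.13), among them Foxred1 of complex I, which fell from 26.1 and 24.6 to 17.5 and 16.2 CPM (-0.59 ± 0.09, adjusted p = 0.000382), and Tmem70 of complex V, which rose from 37.3 and 40.0 to 54.8 and 62.8 CPM (0.60 ± 0.10, adjusted p = 0.000469), and 3 fell in F KO. Of 12 tested uncoupling proteins and nucleotide or phosphate carriers, 3 rose and 2 fell in F WT (median 0.13) and 0 were called in F KO by edgeR, with 1 at an unadjusted p under 0.05. Ckmt1, the mitochondrial creatine kinase, fell from 232 and 218 to 79.2 and 40.8 CPM (-1.91 ± 0.23, adjusted p = 6.44e-05), and Slc25a30, an inner membrane carrier, rose from 21.7 and 22.4 to 44.4 and 43.1 CPM (0.99 ± 0.13, adjusted p = 0.000108). In M WT and M KO no gene of the 7 lists was called by edgeR, with between 0 and 5 per list at an unadjusted p under 0.05.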

How the data were processed

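RNA of 16 MTEC cultures, 2 libraries in each of 8 groups, was sequenced after mRNA enrichment, fragmentation and random priming, per the labels. The authors deposited 1 table of raw counts per Ensembl gene for all libraries. The submitters' processing notes name Trimmomatic 0.36, STAR 2.5.2b, featureCounts of Subread 1.5.2, DESeq2 and the genome build GRCm38. The annotation release, the strand setting and the treatment of reads with more than 1 place are not given in the sources used here. Without strand, reads of either strand over mt-Nd6 count to it. mt-Nd6 and mt-Nd5 overlap on opposite strands, and how reads over that overlap were counted is not given.

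Of 49315 IDs, 48970 matched GENCODE M21 symbols, and the 345 others held 0.0277% of counts. Low genes were removed with filterByExpr (minimum count 10), libraries were scaled by TMM, and 15993 genes were fitted with 8 group means and tested by edgeR 4.0.16 (quasi-likelihood, R 4.3.3) in 16 comparisons, with Benjamini-Hochberg adjustment over all genes in each and a threshold of 0.05. Counts over all genes at an unadjusted p under 0.05 are given only for the HDM responses of M WT and M KO. The common biological coefficient of variation was 0.142. CPM were TMM-scaled, TPM used exon length of each gene, and a pseudocount of 4 CPM was added for correlations. Shares were compared by exact permutation of HDM and naive within sex and genotype (scipy 1.17.1). DESeq2 1.42.0 was an alternative, beside other scalings, filters, sample sets, a replicate block and leaving out each library. The depth, 21860698 to 43442188 counts, sets the precision, and a level of 3 counts or fewer was treated as the floor. Scripts were tested on simulated data.

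Members, lists and alternatives were chosen with earlier results of these data known. Genes were named by rule: the 13 mitochondrially encoded members, core subunits of each complex, isoform pairs, members called between naive groups, up to 2 called members with the largest changes per complex and direction, 2 per related list and the 5 most similar genes. The lists were the 7 related lists and 8 lists of cell type markers. Other genes were named after their values were seen, and 1 gene that the rule names is not reported here.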

Additional observations from a re-analysis of the deposited data

Results flagged for a closer look

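The HDM response differed between M WT and F WT for 11 of 13 mitochondrially encoded genes and 22 of 88 nuclear genes, in a test of the difference itself. Here edgeR gave a lower response in M for all 11 and a higher response in M for 20 of the 22, where 11.3% of all genes were lower in M and 12.8% higher. With 1 library left out, the 22 became 2 to 13. The same test between M KO and F KO called 1 mitochondrially encoded gene, mt-Co3, which had between 16 and 60 counts per library, where 1.79% of all genes were lower and 1.77% higher in M. In the test between F KO and F WT, 3 nuclear members differed, Cox6b2, Ndufs1 and Ndufaf5. Lman1 stood at 55.3% and 64.8% of the WT mean in the libraries labelled F KO HDM and at 10.6% in both labelled F KO naive. In that test 6.16% of all genes were higher and 5.08% lower, and with 1 library left out the 3 became 0 to 4.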

How the results depend on the processing

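Counts of called members depended on single libraries and on the filter on low counts. Leaving out 1 library gave 11 to 21 nuclear members for HDM in F WT (33 with all), 11 to 13 mitochondrially encoded (12), 0 to 7 nuclear in F KO (5) and 1 to 7 mitochondrially encoded (10). It gave 6 to 13 nuclear (26) and 7 to 11 mitochondrially encoded (11) between the sexes in WT HDM, 2 to 12 nuclear in KO HDM (8), 0 mitochondrially encoded in KO naive (1), 3 to 19 nuclear (17) and 0 to 5 mitochondrially encoded (6) between the genotypes in F HDM. For the difference of the response by sex it gave 2 to 13 nuclear (22) and 11 mitochondrially encoded (11) in WT and 0 to 1 nuclear (0) and 0 to 1 mitochondrially encoded (1) in KO, and by genotype in F 0 to 4 nuclear (3). The difference in share ranged from 0.518 to 0.688 percentage points for the mitochondrially encoded genes and from -0.0637 to -0.0423 for the nuclear genes.

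Without the filter on low counts, F KO had 3 nuclear members called, M WT and M KO 1 mitochondrially encoded each, WT naive between the sexes 2 nuclear and 7 mitochondrially encoded, KO naive 8 mitochondrially encoded, KO HDM 5 nuclear, F HDM between the genotypes 9 nuclear, and M HDM 4 nuclear and 3 mitochondrially encoded. The response by sex in KO then had 9 mitochondrially encoded, and that by genotype 4 in F and, in M, 1 nuclear and 4 mitochondrially encoded. With only the compared libraries, F KO had 2 nuclear, WT HDM between the sexes 5 nuclear and 3 mitochondrially encoded, KO HDM 13 nuclear and 1 mitochondrially encoded, F HDM between the genotypes 6 nuclear, the response by sex in KO 7 and that by genotype in F 1 mitochondrially encoded. DESeq2 called 4 nuclear and 6 mitochondrially encoded between the sexes in WT naive, 7 mitochondrially encoded in KO naive, 7 for the response by sex in KO and 6 nuclear for that by genotype in F. TMM without the mitochondrial chromosome gave 3 nuclear in F KO, and library size alone 0 mitochondrially encoded in KO naive. The median nuclear level was 187 TPM with the longest transcript as length against 175. The cause was not tested.

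Correlations of the same-numbered libraries' deviations ranged from -0.372 to 0.702 over 12 pairs of groups, and with 2 pairs the numbers do not establish a pairing. With a replicate block, 1 nuclear member was called in F KO in place of 5 and 7 mitochondrially encoded for the response by sex in KO in place of 1, and no other count moved by more than 1.5 times. A crossed pairing, added after seeing the data where the correlation was under -0.1, gave 4 nuclear and 10 mitochondrially encoded in F KO, 0 mitochondrially encoded in KO naive, and 17 nuclear and 6 mitochondrially encoded between the genotypes in F HDM. Over 40 values of single genes, 409 recomputed values stayed past the threshold and 81 did not, and none of these reversed.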
